A study of Mus musculus with 6 samples.

Results

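The glutathione, peroxiredoxin and thioredoxin antioxidant genes were examined in the retinal RNAseq of control and EFV-treated 5XFAD mice. Genes were included by name: the glutathione transferases (Gst classes a, k, m, o, p and t), the glutathione peroxidases (Gpx), the peroxiredoxins (Prdx), the superoxide dismutases (Sod), the numbered thioredoxins and thioredoxin reductases (Txn, Txnrd), and Cat, Gsr, Gclc, Gclm, Hmox1 and Nqo1. No measured value enters this rule, though it was set with earlier results of these data known. The rule found 50 genes among the 19401 listed in the files, namely 21 glutathione transferases, 8 glutathione peroxidases, 7 peroxiredoxins, 3 superoxide dismutases, 5 thioredoxins and reductases, and the 6 genes given by name. Of these, 40 reached a minimum of 10 counts in 3 or more libraries and were tested, out of 15537 genes tested in all.

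5XFAD mice carry mutant human amyloid precursor protein and mutant human presenilin 1, both driven by the neuronal Thy1 promoter, and are a model of Alzheimer's disease. All animals of both groups were hemizygous for the transgenes, on the B6SJL background and without the retinal degeneration alleles rd8 of Crb1 and rd1 of Pde6b, so no nontransgenic group enters the comparison. The treated group received EFV (efavirenz, an anti-HIV drug that at small doses activates the cholesterol hydroxylase CYP46A1) in drinking water with Tween 80 from 3 to 9 months of age, at 0.08 mg/kg body weight by the sample labels, and control mice received Tween 80 alone. The study's methods give a slightly different dose. There were 3 libraries per group, all from mice 9 months old by the sample labels. A library was made from 5 to 6 mice, each giving 1 retina with its retinal pigment epithelium (RPE), and the methods describe the mice as male, so an SD here is a spread between pools.

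The retina is exposed to light, rich in polyunsaturated lipids and heavily dependent on oxygen, and its cells rely on several linked systems against reactive oxygen species. Superoxide dismutases convert superoxide to hydrogen peroxide, which catalase, glutathione peroxidases and peroxiredoxins remove. Glutathione peroxidases take their electrons from glutathione, and most peroxiredoxins from thioredoxin. Glutathione reductase and the thioredoxin reductases regenerate these carriers with NADPH, and glutathione transferases couple glutathione to electrophiles. Many of the genes can be induced through the transcription factor NRF2, which binds antioxidant response elements.

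The libraries held from 23455167 to 24590278 expected counts (RSEM's estimate of the reads of each gene, rounded here). Rod markers summed to between 27340 and 29681 FPKM (fragments per kilobase of transcript, scaled to the mapped fragments of the library) in all 6 libraries. Control replicate 3 stood apart through lens RNA: the 16 lens markers summed to 3811 FPKM there and to between 31.4 and 174.5 FPKM in the other 5 libraries. All 11 tested lens markers were lower in EFV-treated mice at the limits given below, where 1.54% of all genes were. The FPKM groups overlapped for each of the 11. The lens sums of EFV replicates 1 and 3 (113.7 and 174.5 FPKM) lay above those of control replicates 1 and 2 (49.6 and 106.6 FPKM). Of the 11 tested RPE markers 9 had a log2 fold change above 0, with a median of 0.40, and their summed FPKM ranged from 238.5 (control replicate 2) to 291.4 in control and from 273.9 to 287.4 in EFV-treated mice. Most of this sum was Rlbp1, also a Muller cell marker, at 208.2 to 231.6 FPKM with a log2 fold change of -0.03. Of the 11, Rpe65 (0.58) and Lrat (0.65) passed the limits given below, both higher in EFV-treated mice. The lens and RPE markers are used below wherever they move with an antioxidant gene. In pooled tissue, fewer cells of a type and less RNA per cell cannot be told apart.

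The sequence most often named for the control of these genes, the core of the antioxidant response element, was looked for in their promoters, because it is the letter pattern that NRF2 and its small Maf partners recognise. The letters TGACNNNGC were searched on both strands of the RefSeq promoters (GRCm38.p6, the build of the files; 250 bases before to 50 bases after a start site). Of the 42 members with a promoter in the table, 7 held a match (16.7%), where 14% of 27025 genes did. The share among the members was therefore near that of all genes. The matches are printed below in the direction of the gene, with the 9 letters of the match in capitals. In Gclm, Prdx1, Sod1 and Txnrd1 the motif lies on the opposite strand and is read there as its reverse complement.
Gclm, chr3:122245415-122245439, plus strand: tcccgggcGCACCGTCAactctcac
Gsta3, chr1:21240456-21240480, plus strand: ctcaggcaTGACATTGCatttttct
Gstm5, chr3:107895804-107895828, plus strand: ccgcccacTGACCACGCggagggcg
Gstm7, chr3:107931727-107931751, minus strand: tgaagaccTGACAAAGCgaagccaa
Prdx1, chr4:116685458-116685482, plus strand: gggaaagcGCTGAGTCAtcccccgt
Sod1, chr16:90220698-90220722, plus strand: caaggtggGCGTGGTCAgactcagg
Txnrd1, chr10:82859106-82859130, plus strand: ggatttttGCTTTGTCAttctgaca

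The match of Prdx1, read on its own strand as TGACTCAGC, also holds TGANTCA, the recognition sequence of AP-1, which none of the other 6 matches does. The centres of the matches lay from 38 bases (Gstm5) to 130 bases (Gclm) before the start site of the promoter entry in which they were found. A match is a run of letters and not a shown binding site, and elements farther from the start, where several NRF2 targets are known to have theirs, are outside this window. Gclc, Gsr, Gsta4, Gstt2, Hmox1, Prdx6, Prdx6b and Sod3 had no entry in the table.

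Together the 50 genes made up between 0.413% and 0.444% of the summed FPKM of a library. Gpx4 alone accounted for 28.4% to 29.8% of the members' FPKM. Mean FPKM of the tested members ran from 443.2 (Gpx4) to 0.783 (Gsto2), and the 6 most abundant members kept the same order in all 6 libraries: Gpx4, Gstp1, Sod1, Prdx2, Txn2 and Prdx5. Below these, neighbours in the order were often not separated. Prdx1 was above Prdx6 in 4 of the 6 libraries, Prdx6 above Gstm5 in 3, and Sod2 above Gsto1 in 2.

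**Figure D1:**
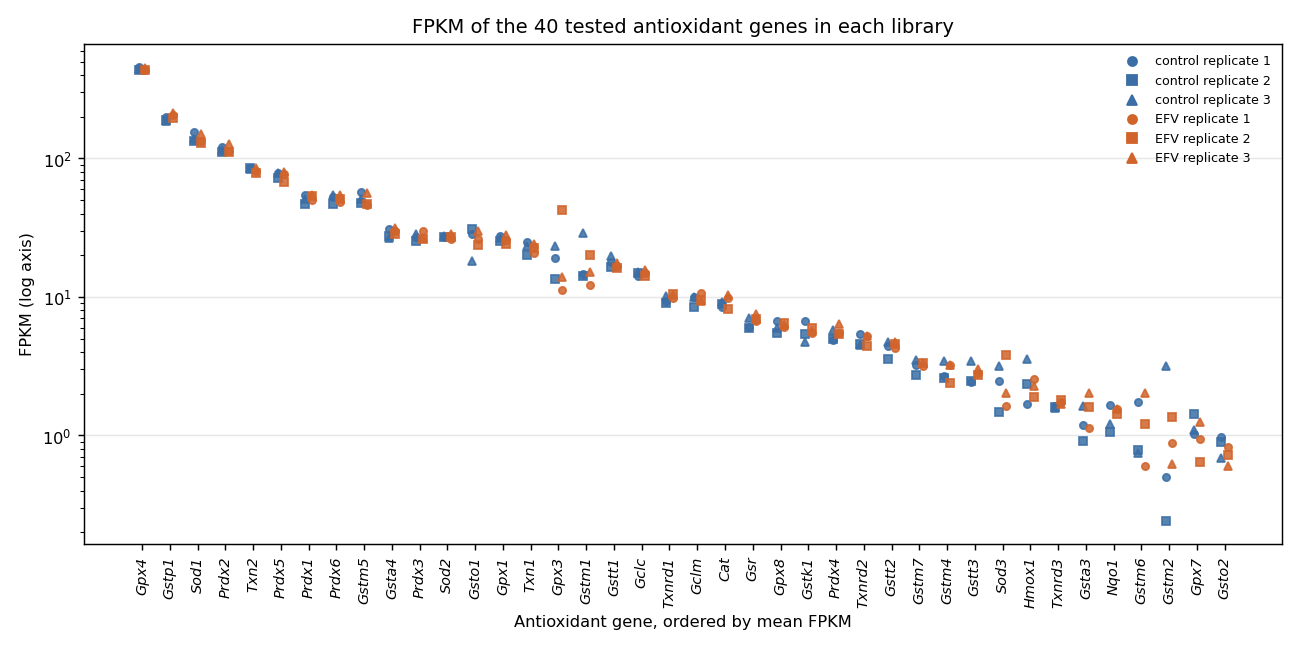
FPKM on a log axis of the 40 tested antioxidant genes, with 1 point per library (blue, control; orange, EFV-treated; the symbol gives the replicate) and genes ordered by mean FPKM. The groups lie on top of each other for the abundant genes, from Gpx4 at 432.0 to 459.9 FPKM down, whereas single libraries stand apart for Gpx3, Gstm1, Gstm2 and Sod3.

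No antioxidant gene passed the test for a difference between EFV-treated and control 5XFAD mice. An adjusted p of 0.05 or less was reached by 0 of the 40 tested members and by 0 of all 15537 genes (0%; quasi-likelihood test of edgeR with Benjamini-Hochberg adjustment over all genes), and the adjusted p of all 40 members was 0.999. The study used limits of a p of 0.05, based on the Poisson distribution, and a change of 7% in either direction. The edgeR p also takes in the spread between pools, so it is an unlike measure. With these limits on the unadjusted edgeR p, 0 of the 40 members passed and 467 of all genes did (3.01%; 3.04% without the limit on size), and the smallest unadjusted p among the members was 0.0938 (Txn2). DESeq2 and limma on log2 FPKM likewise gave 0 members at an unadjusted p of 0.05 or less. A log2 fold change above 0 was found for 23 of the 40 members (50.5% of all genes), with a median of 0.02 beside 0.00 for all genes. This split was not stable. With the mean of the RPE markers as a covariate 12 of the 40 were above 0 and the median was -0.05. Without control replicate 2, 14 were above 0 and the median was -0.03. That library was lowest in RPE markers and also the lowest of all libraries for 15 of the 40 members. Without EFV replicate 3, 17 were above 0 and the median was -0.04. The cause of these shifts was not tested. With 3 libraries against 3 the smallest two-sided p of an exact permutation test is 0.1, so the p-values rest on the model. The labels do not say that pools were independent beyond being separate samples.

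A p above the threshold does not show equality, and the interval of each fold change says more. For 18 of the 40 genes the 95% interval of the fold change, EFV-treated over control, lay within 1.2-fold in either direction, for 30 within 1.5-fold and for 36 within 2-fold. Among the 16 members with a mean FPKM of 20 or more, all but Gpx3 and Gsto1 had log2 fold changes from -0.09 to 0.07, and the intervals of these 14 genes stayed between 0.820-fold and 1.17-fold. For the 7 tested members with a mean FPKM under 2, the interval reached from 0.29 to 1.75 on the log2 scale to either side of the estimate. The narrowest was that of Txnrd3 and the widest that of Gstm2. Changes smaller than these widths could not be told from 0. The parts of depth and of the spread between pools in these widths were not tested.

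**Figure D2:**
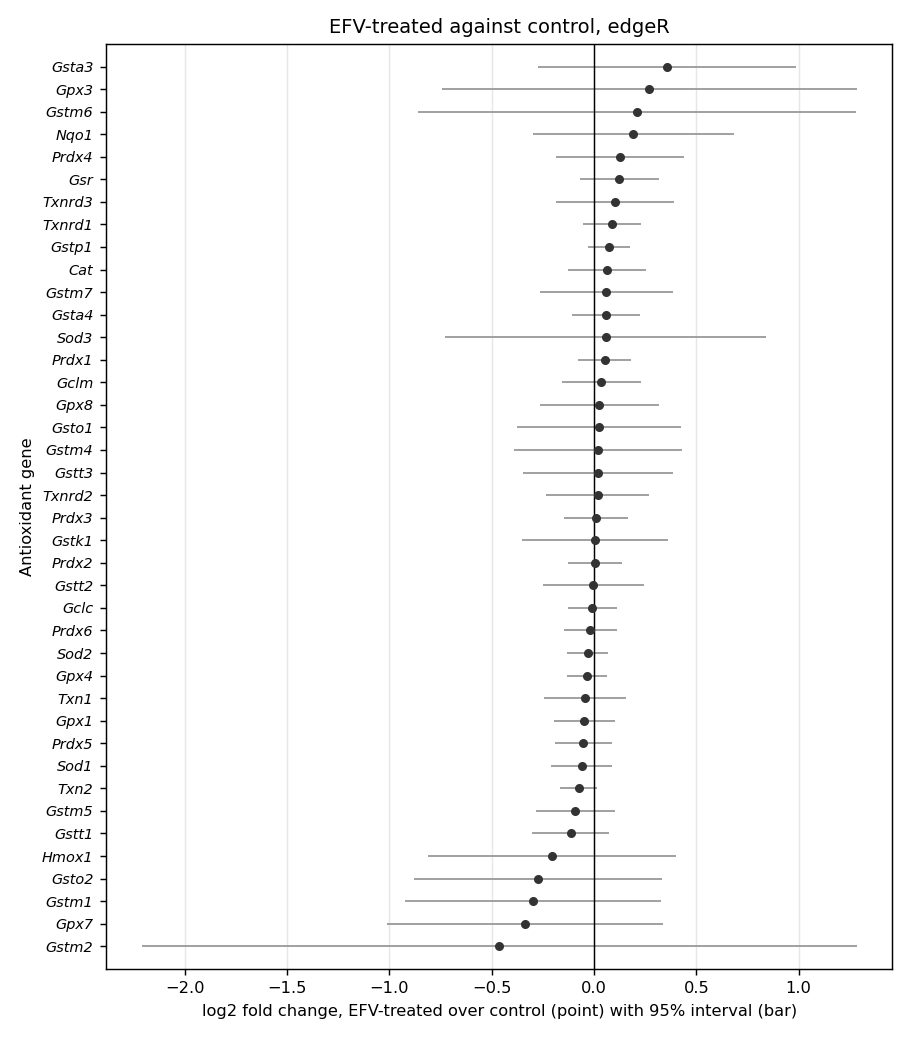
Log2 fold change of each tested antioxidant gene, EFV-treated over control (points), with its 95% interval from edgeR (bars), ordered by size. Every interval includes 0, and the widest belong to Gstm2, Gstm6, Gpx3 and Sod3.

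None of the superoxide dismutases passed the test. Sod1, the cytosolic copper and zinc enzyme (chromosome 16 from 90220762 to 90226333), had FPKM values of 154.8, 133.9 and 137.3 in control replicates 1, 2 and 3 and of 133.8, 129.9 and 150.4 in EFV replicates 1, 2 and 3. The groups overlapped, with means of 142.0 ± 11.2 (SD, n = 3) in controls and 138.0 ± 10.9 (SD, n = 3) in EFV-treated retinas, with a log2 fold change, EFV-treated over control, of -0.06 (standard error, SE, 0.07). Sod2, the mitochondrial manganese enzyme, was the most even of these genes. Its FPKM was 27.1, 27.3 and 27.5 in control and 26.1, 27.1 and 28.3 in EFV-treated mice, giving a log2 fold change of -0.03 (SE 0.04). Sod3, the secreted enzyme of the extracellular matrix, was low and uneven, and is described below with Gpx3.

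Among the glutathione peroxidases, Gpx4 and Gpx1 were steady and Gpx3 was not. Gpx4 (chromosome 10 from 80047166 to 80056439) encodes the enzyme that reduces lipid hydroperoxides within membranes and holds ferroptosis in check. It was the most abundant member, the 61st of all genes by mean FPKM, with values of 459.9, 435.7 and 441.2 in control and 432.0, 438.1 and 452.6 in EFV-treated mice. The log2 fold change was -0.03 with an interval from -0.13 to 0.06, among the narrowest measured. Gpx1, the cytosolic peroxidase of hydrogen peroxide, had 27.4, 25.3 and 26.6 FPKM in control and 25.7, 24.3 and 27.8 FPKM in EFV-treated retinas, with a log2 fold change of -0.05 (SE 0.07). Gpx8 and Gpx7, which reside in the endoplasmic reticulum, were low, with control means of 6.07 and 1.19 FPKM, EFV-treated means of 6.29 and 0.947 FPKM and log2 fold changes of 0.03 (SE 0.13) and -0.34 (SE 0.30). Gpx2, Gpx5 and Gpx6 had at most 6 counts in any library and were not tested.

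No peroxiredoxin passed the test. Prdx2, a cytosolic peroxidase that is also abundant in red blood cells, had FPKM values of 120.5, 110.6 and 114.7 in control and 112.7, 110.6 and 127.4 in EFV-treated mice. The groups overlapped almost wholly, and the log2 fold change was 0.00 (SE 0.06). The erythroid markers summed to between 131.4 and 263.9 FPKM in control and between 113.6 and 289.4 in EFV-treated mice, highest in control replicate 1 and EFV replicate 3, the libraries with the highest Prdx2 of their group. Of the 40 tested members, 10 were highest of all libraries in control replicate 1 and 13 in EFV replicate 3. The pattern was therefore not particular to Prdx2. The part of the erythroid markers in Prdx2 was not tested. Prdx5, found in mitochondria, peroxisomes and cytosol, had 79.2, 72.1 and 78.4 FPKM in control and 77.7, 67.4 and 79.2 FPKM in EFV-treated mice, giving a log2 fold change of -0.05 (SE 0.06). The remaining tested peroxiredoxins had log2 fold changes of 0.05 (Prdx1, cytosolic), 0.01 (Prdx3, mitochondrial), 0.13 (Prdx4, in the endoplasmic reticulum) and -0.02 (Prdx6, which uses glutathione), with SEs from 0.06 to 0.14. Prdx6b, a near copy of Prdx6, had at most 3 counts in a library, and the summed counts of both gave -0.02 (SE 0.06).

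In the thioredoxin system the mitochondrial thioredoxin came closest to a difference. Txn2 (chromosome 15 from 77915051 to 77928994) had FPKM values of 85.8, 84.9 and 83.9 in control and 81.2, 78.4 and 84.9 in EFV-treated mice. EFV replicates 1 and 2 lay below all controls, and EFV replicate 3 equalled control replicate 2. The log2 fold change was -0.08 (SE 0.04, unadjusted p = 0.0938 and adjusted p = 0.999 by edgeR), with an interval from -0.17 to 0.02. On TMM-scaled counts the groups did not overlap, and Txn2 was lower. Without EFV replicate 3 the unadjusted p was 0.0420 and the log2 fold change -0.10, and the adjusted p was 0.998 (edgeR). That library had kept the FPKM groups from separating, so a smaller p was built into leaving it out. In the same fit 566 of all genes passed the study's limits. Among the mitochondrial partners of Txn2, Txnrd2, its reductase, and Prdx3, a peroxiredoxin that Txn2 serves, had log2 fold changes of 0.02 (SE 0.11) and 0.01 (SE 0.07).

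Txn1, the cytosolic thioredoxin, had 24.9, 20.1 and 23.5 FPKM in control and 20.8, 22.5 and 23.9 FPKM in EFV-treated mice, with overlapping groups and a log2 fold change of -0.05 (SE 0.09). With the RPE markers as a covariate the log2 fold change of Txn1 was -0.18 (unadjusted p = 0.0454, adjusted p = 1.00, edgeR). Txnrd3, a reductase best known from testis, was the only member whose groups did not overlap in FPKM, 1 of 40, where 7.67% of all genes tested did not overlap (4.99% with EFV higher and 2.68% with EFV lower). Its FPKM was 1.64, 1.61 and 1.57 in control and 1.75, 1.80 and 1.68 in EFV-treated mice. These are means of 1.61 ± 0.0351 (SD, n = 3) and 1.74 ± 0.0603 (SD, n = 3), and the log2 fold change was 0.10 (SE 0.13, unadjusted p = 0.434 by edgeR). The difference was smaller than the SE of the model, in which the counting error of so low a gene (105 to 122 counts a library) weighs. Txnrd1, the cytosolic reductase and an NRF2 target, had 9.28, 9.09 and 10.1 FPKM in control and 9.78, 10.5 and 10.4 FPKM in EFV-treated mice, giving a log2 fold change of 0.09 (SE 0.06).

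The glutathione transferases were led by Gstp1, the pi class enzyme (chromosome 19 from 4035411 to 4037912). Its FPKM was 199.3, 191.2 and 187.4 in control and 206.2, 196.2 and 214.2 in EFV-treated mice, and a single pair, EFV replicate 2 below control replicate 1, kept the groups from separating. The means were 192.6 ± 6.09 (SD, n = 3) and 205.5 ± 9.05 (SD, n = 3), with a log2 fold change of 0.07 (SE 0.05, unadjusted p = 0.133 by edgeR). Gstp2 and Gstp3, its close copies, had at most 9 counts, and the summed pi class gave 0.08 (SE 0.05). Gstm5, the most abundant mu class gene, had 57.5, 47.9 and 51.4 FPKM in control and 46.5, 46.5 and 56.0 FPKM in EFV-treated mice, giving a log2 fold change of -0.09 (SE 0.09). Leaving out EFV replicate 3, the highest of its group, made the FPKM groups separate, and 566 of all genes then passed the study's limits. In that fit the log2 fold change of Gstm5 was -0.18 with an unadjusted p of 0.0464 (edgeR), and the adjusted p was 0.998. With the RPE markers as a covariate it was -0.20 (unadjusted p = 0.0446, adjusted p = 1.00, edgeR).

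Other transferases lay at lower levels. Gsta4, the alpha class enzyme for 4-hydroxynonenal, a product of lipid peroxidation, had means of 28.4 ± 2.34 (SD, n = 3) in controls and 30.0 ± 1.58 (SD, n = 3) in EFV-treated mice. Gstt1, of the theta class, had 18.1 ± 1.61 (SD, n = 3) and 16.8 ± 0.781 (SD, n = 3). Their log2 fold changes were 0.06 and -0.11 with SEs of 0.07 and 0.08, and neither passed the test. The rest with enough counts, Gstk1, Gstm4, Gstm6, Gstm7, Gstt2, Gstt3, Gsta3 and Gsto2, had mean FPKM values from 0.783 to 5.68 and log2 fold changes from -0.27 (Gsto2) to 0.36 (Gsta3). Gsta3 had 1.19, 0.91 and 1.62 FPKM in control and 1.13, 1.60 and 2.03 FPKM in EFV-treated mice, and its SE of 0.28 left the interval between -0.27 and 0.99. Gsta1, Gsta2, Gstm3 and Gstt4 had at most 8 counts in a library, and the 3 counts of Gstm3 were all in control replicate 1.

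Copies of a transferase gene can share reads, which RSEM divides among them, so the counts of each class were also summed. The log2 fold changes of the sums were 0.08 (alpha), 0.01 (kappa, 1 gene), -0.14 (mu), 0.01 (omega), 0.08 (pi) and -0.06 (theta), with SEs from 0.05 to 0.17. None passed, and each adjusted p was 0.999 (edgeR). The mu class was the only one of these whose unadjusted p fell under 0.05 with a library left out. Without control replicate 2 its sum had a log2 fold change of -0.24 with an unadjusted p of 0.0423 (adjusted p = 1.00, edgeR). That library had the lowest mu class sum, 1581 counts, so a smaller p was built into leaving it out. In that fit 388 of all genes passed the study's limits. Without control replicate 3 the log2 fold change of the mu class was -0.0048 (unadjusted p = 0.958, edgeR), so its size rested on that library.

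**Figure D3:**
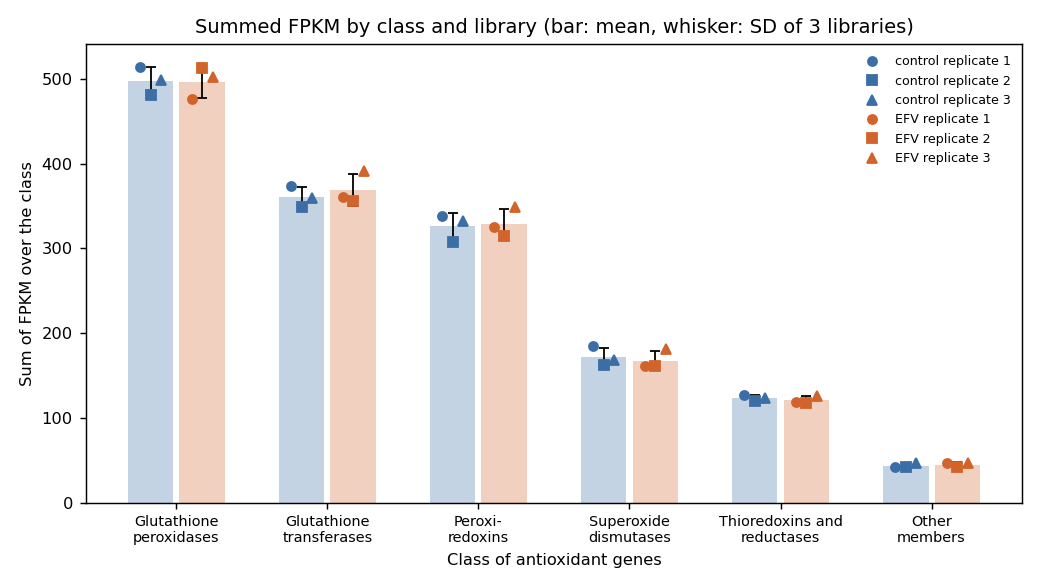
Sum of FPKM over the members of each class in each library (symbols), with the mean (bars) and SD (whiskers) of the 3 control (blue) and 3 EFV-treated (orange) libraries. Control and EFV-treated means differ by less than the SD of either group in all 6 classes, for example 498.2 ± 16.4 and 496.9 ± 18.7 FPKM for the glutathione peroxidases.

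Genes that make and recycle glutathione also gave no call. Gclc and Gclm encode the catalytic and the modifier subunit of glutamate-cysteine ligase, the rate-limiting enzyme of glutathione synthesis. Gclc had 14.3, 15.0 and 15.0 FPKM in control and 14.8, 14.1 and 15.7 FPKM in EFV-treated mice (log2 fold change -0.01, SE 0.05). Gclm had 9.94, 8.53 and 10.1 FPKM in control and 10.8, 9.55 and 9.37 FPKM in EFV-treated mice (log2 fold change 0.04, SE 0.09). The groups overlapped for both. Gsr, glutathione reductase, had 6.12, 5.98 and 7.07 FPKM in control and 6.69, 6.91 and 7.55 FPKM in EFV-treated mice, giving a log2 fold change of 0.12 (SE 0.08). Control replicate 3 lay above EFV replicates 1 and 2, and without it the log2 fold change of Gsr was 0.20 with an unadjusted p of 0.0435 (adjusted p = 1.00, edgeR). Leaving that library out made the FPKM groups separate, so a smaller p was built in, and 530 of all genes then passed the study's limits. Cat, the peroxisomal catalase, had 8.90 ± 0.366 (SD, n = 3) and 9.42 ± 1.06 (SD, n = 3) FPKM and a log2 fold change of 0.06 (SE 0.08).

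Hmox1 and Nqo1, which encode the stress-inducible heme oxygenase and the quinone reductase that are widely read as indicators of NRF2 activity, were low. Hmox1 had FPKM values of 1.68, 2.35 and 3.59 in control and 2.56, 1.88 and 2.26 in EFV-treated mice, with a log2 fold change of -0.20 (SE 0.27). Its highest value was in control replicate 3, the library with lens RNA, and without that library the log2 fold change was 0.13. Nqo1 had 1.66, 1.06 and 1.21 FPKM in control and 1.56, 1.43 and 1.55 FPKM in EFV-treated mice, with a log2 fold change of 0.19 (SE 0.22). The 7 members with an antioxidant response element match in the promoter had log2 fold changes from -0.09 to 0.36, 5 of them above 0, and a median of 0.05. For the 26 tested members with a promoter but no match the median was 0.01 and 15 were above 0. These counts are a description, and no difference between them was tested.

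A small number of members stood out by their spread between pools. The biological coefficient of variation that edgeR estimated for a gene had a median of 0.0942 over the tested members and of 0.0776 over all genes tested. In 15 of the 40 members the highest FPKM was less than 1.2 times the lowest, whereas in 8 it was at least 2 times the lowest. Those 8 were Gstm2, Gpx3, Gstm6, Sod3, Gstm1, Gpx7, Gsta3 and Hmox1, and their coefficients lay at percentiles from 90.4 (Gpx7) to 99.3 (Gstm2) of all genes.

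Gpx3 encodes the secreted plasma glutathione peroxidase, and Sod3 the extracellular superoxide dismutase, so both act outside cells. Gpx3 (chromosome 11 from 54902854 to 54910387) had FPKM values of 19.1, 13.4 and 23.3 in control and 11.2, 42.7 and 13.8 in EFV-treated mice. EFV replicate 2 was higher than any other library and the other EFV libraries were among the 3 lowest. Sod3 had 2.49, 1.48 and 3.16 FPKM in control and 1.64, 3.81 and 2.04 FPKM in EFV-treated mice, with the same 3 libraries at the top. The log2 fold change of Gpx3 was 0.27 (SE 0.45). Without EFV replicate 2 it was -0.59 with an unadjusted p of 0.0219 (adjusted p = 0.998, edgeR), so a single pool decided its sign. That library lay farthest from the others, so a smaller p was built into leaving it out. In the same fit 544 of all genes passed the study's limits. For Sod3 the same step changed 0.06 to -0.39. The 8 fibroblast and matrix markers summed to between 17.3 and 22.0 FPKM in control and between 20.9 and 28.2 in EFV-treated mice, with most of the sum in Col6a1, and single markers peaked in different libraries. Their part in Gpx3 and Sod3 was not tested.

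Gstm1 and Gstm2, mu class transferases, were highest in control replicate 3. Gstm1 had 14.7, 14.3 and 29.0 FPKM in control and 12.3, 20.2 and 15.2 FPKM in EFV-treated mice. Gstm2 had 0.50, 0.24 and 3.17 FPKM in control and 0.88, 1.36 and 0.62 FPKM in EFV-treated mice. In both genes EFV replicate 2 was the second highest library. The lens markers summed to 3811 FPKM in control replicate 3 and to 31.4 FPKM in EFV replicate 2. The log2 fold change of Gstm2 was -0.46 (SE 0.77) with all libraries and 1.34 without control replicate 3 (unadjusted p = 0.0249, adjusted p = 1.00, edgeR). For Gstm1 these were -0.30 and 0.11. Leaving that library out made the FPKM groups of Gstm2 separate, so a smaller p was built in, and 530 of all genes then passed the study's limits. Gsto1, the main omega class transferase, showed the opposite pattern, with 28.5, 31.1 and 18.1 FPKM in control and 26.3, 23.7 and 29.9 FPKM in EFV-treated mice and the lowest value in control replicate 3. With the mean of the lens markers as a covariate, the log2 fold changes of Gstm1, Gstm2 and Hmox1 were 0.03, 1.03 and 0.14, all with an unadjusted p above 0.05 (edgeR).

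**Figure D4:**
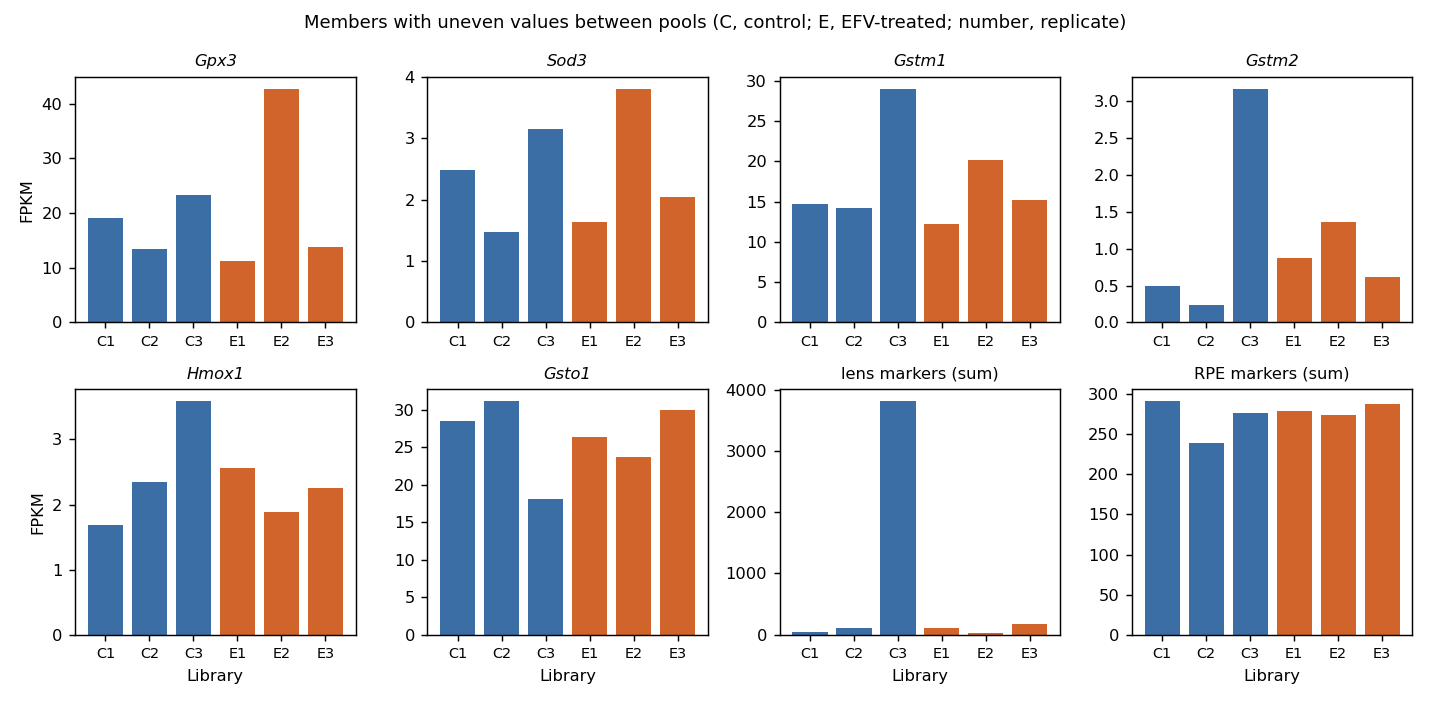
FPKM per library of 6 antioxidant genes with uneven values between pools, and the summed FPKM of lens and RPE markers (C, control; E, EFV-treated; the number gives the replicate). Gpx3 and Sod3 peak in EFV replicate 2, Gstm1, Gstm2 and Hmox1 peak in control replicate 3, where the lens markers reach 3811 FPKM, and Gsto1 is lowest there.

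The wider pathway was followed through 8 lists with 138 genes, of which 121 had enough counts to be tested. Of these, 56 had log2 fold changes above 0 and 65 below 0, and 0 passed the study's limits on the unadjusted p, beside 3.01% of all genes. The smallest unadjusted p among them was 0.0547 (edgeR), for Hmox2, the constitutive heme oxygenase, with a log2 fold change of -0.14. The FPKM groups did not overlap for 8 of the 121, 3 with EFV higher and 5 with EFV lower, where 7.67% of all genes did not overlap. Among 19 genes of glutathione synthesis, turnover and transport, 11 were above and 8 below 0, with a median of 0.01. The most abundant were Slc3a2, the heavy chain shared by several amino acid transporters, with 52.4 ± 2.61 (SD, n = 3) and 53.3 ± 2.67 (SD, n = 3) FPKM, and the glutamate transporters Slc1a3 and Slc1a2, with log2 fold changes of 0.01 and 0.04. Among 14 other transferases, glutaredoxins and glyoxalases 6 were above and 8 below 0, led by Glo1, glyoxalase 1, with 64.9 ± 5.60 (SD, n = 3) and 65.1 ± 4.67 (SD, n = 3) FPKM, Hagh (-0.03) and Glrx5 (0.08).

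Of 19 thioredoxin partners and repair enzymes 13 were below 0 and 6 above, with a median of -0.04. Nxnl1, which encodes the rod-derived cone viability factor, a thioredoxin-like protein of photoreceptors, had 107.5, 109.0 and 106.3 FPKM in control and 104.9, 105.6 and 105.7 FPKM in EFV-treated mice. All EFV values were below all control values, but the log2 fold change was -0.05 with an SE of 0.04. Its paralog Nxnl2 had a log2 fold change of -0.04 and Txnl4a one of -0.02. Srxn1, sulfiredoxin, which repairs overoxidized peroxiredoxins and is an NRF2 target, had 23.6, 23.6 and 23.1 FPKM in control and 22.9, 22.4 and 23.0 FPKM in EFV-treated mice, again without overlap and with a log2 fold change of -0.05 (SE 0.04, unadjusted p = 0.221 by edgeR).

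The 14 NRF2 regulators had 3 log2 fold changes above 0 and 11 below, between -0.27 and 0.03. NRF2 itself, encoded by Nfe2l2, had 12.2 ± 0.857 (SD, n = 3) FPKM in control and 12.4 ± 0.320 (SD, n = 3) FPKM in EFV-treated retinas, with a log2 fold change of 0.00 (SE 0.07). Keap1, which targets NRF2 for degradation, had 15.8 ± 0.864 (SD, n = 3) and 15.9 ± 0.403 (SD, n = 3) FPKM. The most abundant of the list, Sqstm1, Park7 and Cul3, had log2 fold changes of -0.02, -0.08 and 0.03. Among 23 other NRF2 targets and genes of NADPH supply 11 were above and 12 below 0, with Fth1, ferritin heavy chain, at 571.4 ± 9.94 (SD, n = 3) and 565.7 ± 8.03 (SD, n = 3) FPKM, Ftl1 at -0.05 and Tkt at -0.08 on the log2 scale.

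Of 21 genes of selenoprotein synthesis and other selenoproteins, which share their rare amino acid with several glutathione peroxidases and the thioredoxin reductases, 12 were above and 9 below 0. Selenow had 253.4 ± 8.74 (SD, n = 3) and 244.7 ± 7.81 (SD, n = 3) FPKM, and the log2 fold changes of Selenow, Selenof and Selenom were -0.07, 0.01 and -0.05. The 3 metallothioneins, metal-binding proteins that rise in many forms of retinal stress, were at 0.04 (Mt1), 0.06 (Mt2) and 0.11 (Mt3), with SEs from 0.08 to 0.17. Of the sources of superoxide and hydrogen peroxide, 8 genes had enough counts, 4 above and 4 below 0. Cyba, a subunit of the NADPH oxidases, and Maoa, a monoamine oxidase, had log2 fold changes of -0.11 and -0.08. Cybb, the catalytic subunit of the phagocyte oxidase, was not tested, with 0.04 to 0.13 FPKM.

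Limits of these values lie in shared and overlapping reads as well as in depth. Expected counts were not whole in at least 1 library for 10 of the 50 members, among them Gpx4, Gstp1, Prdx5 and Sod2, as happens where RSEM divides reads between genes. The strandedness of the libraries was not given in the sources used here, and Gpx8, Prdx5 and Txnrd1 overlap another protein-coding gene, Cdc20b, Trmt112 and Eid3, whose reads may not be separable from theirs.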

How the data were processed

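Retinal RNAseq of 3 control and 3 EFV-treated 5XFAD pools was used. The authors filtered the reads, aligned them to mm10 with Bowtie2 2.2.5 and deposited RSEM 1.2.12 expected counts and FPKM per gene, the latter divided by length and library total; HISAT2 2.0.4 is listed without a role. Gene length, the further number in the deposited files, was not used. The read filter, annotation release and strandedness are not given in the sources used here. A gene that a file does not list was taken as 0, and a count of 0 allows up to 3 counts. Intervals of fold changes come from the edgeR fit, which takes in counting error and the spread between pools, and cover no other error.

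Expected counts were rounded, and genes reaching 10 counts in 3 or more libraries entered the quasi-likelihood fit of edgeR 4.0.16 under R 4.3.3 after TMM scaling (factors from 0.984 to 1.01), group as the only term, two-sided, with Benjamini-Hochberg adjustment over all 15537 genes. Counts of all library pairs differed by more than sampling noise (chi-square over its degrees of freedom, 5.59 to 13.9). On simulated data with 15537 genes for this comparison, 60 of 100 genes changed 1.5-fold and 80 of 100 changed 2-fold were recovered, with 14 false calls. Alternatives were other scalings and filters, DESeq2 1.42.0, limma 3.58.1 on log2 FPKM with pseudocounts of 0.1, 1 and 0.01, a Poisson model, marker covariates, a replicate block, genes with an Entrez identifier only and each library left out. A fit without both control replicate 3 and EFV replicate 2 was added after seeing the data.

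Members and lists were chosen with earlier results of these data known. Members named in full were those at an unadjusted p of 0.05 or with groups that do not overlap and the 2 most abundant of each class. Of each list, up to 3 abundant genes and up to 3 at an unadjusted p of 0.05 were named. Gpx3, Sod3, Gstm1, Gstm2, Gsto1, Hmox1, Nqo1, Gsr, Txnrd1, Gsta3, Srxn1, Hmox2, Nfe2l2, Keap1 and Cybb were singled out beyond that rule, after their values were seen. Some genes that the rule or an overlap would name are not reported here. Gene positions and promoters are from RefSeq (GRCm38.p6), in which all 50 members were found.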

Additional observations from a re-analysis of the deposited data

How the results depend on the processing

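No antioxidant gene had an adjusted p of 0.05 or less under any alternative but the Poisson model, in which counting is the sole source of error. The study's own threshold was based on that distribution. The Poisson model called 5 of the 40 members (Gpx3, Gpx4, Gstm1, Gstp1 and Txn2) and 2042 of all 15537 genes. At the study's limits 6 of the 40 members and 2305 of all 15537 genes passed in that model. In both counts the share of the members was near that of all genes. DESeq2 called 11 of all genes and 0 members. At the study's limits on the unadjusted p, 2 members passed with the RPE marker covariate (Gstm5 at -0.20 and Txn1 at -0.18) and 1 with the lens marker covariate (Gsr at 0.20), where 2.65% and 3.14% of all genes did. With each library left out in turn, 0 to 1 of all genes and 0 members were called, from 0 to 2 members and 388 to 576 of all genes passed the study's limits, and the FPKM groups did not overlap for 2 to 7 members, where 14.8% to 19.5% of all genes did not. On CPM 2 members did not overlap (Txn2 and Txnrd3), where 8.12% of all genes did not. The log2 fold change of Gpx3 then ranged from -0.59 (without EFV replicate 2) to 0.60, and that of Gstm2 from -0.95 to 1.34 (without control replicate 3). For the summed classes the ranges were -0.24 to -0.0048 for Gstm, -0.19 to 0.17 for Gsto and -0.12 to 0.027 for Gstt, the low end of Gsto and the high end of Gstt being without control replicate 3. Without both control replicate 3 and EFV replicate 2, an alternative added after seeing the data, 0 members passed, and Gpx3 was at -0.40, Gstm2 at 0.99 and Hmox1 at 0.23. With the replicate block 0 members were called, the median log2 fold change was 0.02, and 39 of 40 members kept their direction. Same-numbered libraries deviated together weakly, with correlations of 0.0795 to 0.126, against -0.0999 to -0.00665 for other pairs. Each library was highest with its own number. The labels do not say whether the numbers mark pairs or a shared batch, and neither was tested. The main fit took no pairs. The other scalings and filters and limma gave 0 calls, with 37 or more of the members in the same direction. The cause of these shifts was not tested. With libraries of about the same depth, low genes such as Gsto2 and Gpx7 are limited by counts and by the spread between pools, and the transferase copies with fewer than 10 counts could not be compared.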

Other observations

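Genes of the extracellular matrix outside the lists had their highest FPKM in the library where Gpx3 and Sod3 peaked. They were picked after their values were seen, for that reason, and are given as values only. Mfap4, a microfibril-associated protein, had 2.18, 1.57 and 2.79 FPKM in control replicates 1, 2 and 3 and 0.98, 5.50 and 1.32 FPKM in EFV replicates 1, 2 and 3. Fbln1, fibulin 1, had 6.2, 4 and 8.86 FPKM in control and 2.6, 11 and 4.21 FPKM in EFV-treated mice. Fmod, fibromodulin, had 2.77, 2.08 and 3.63 FPKM in control and 2.53, 4.90 and 2.29 FPKM in EFV-treated mice. In each of these genes EFV replicate 2 was the highest library and control replicate 3 the second highest, as for Gpx3 and Sod3. Their log2 fold changes were 0.25 (Mfap4), -0.11 (Fbln1) and 0.18 (Fmod), all with an adjusted p of 0.999 (edgeR). Of the fibroblast and matrix markers of the fixed list, Col6a1 was highest in EFV replicate 3, at 23.9 FPKM, Col1a2 in EFV replicate 2, at 1.05 FPKM, and Ogn in control replicate 3, at 3.12 FPKM.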
